A study of Mus musculus with 8 samples.

Results

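YAP and TAZ target genes were followed as a set of 10 genes that these transcriptional coactivators are known to switch on: Ctgf, Cyr61, Ankrd1, Amotl2, Ptpn14, Nuak2, Crim1, Fjx1, Gadd45a and Ccdc80. They were taken by gene name from a table of read counts for 35275 mouse genes, where each of the 10 has 1 entry, and all 10 were among the 15412 genes with enough reads to test. Bulk RNA sequencing of mouse tumours supplied the counts. Every animal carried floxed (f/f) alleles of Nf2 and Cdkn2a, and an adenovirus carrying Cre recombinase was injected into the peritoneum, so both genes are labelled deleted in all 8 tumours. Beyond that, 4 peritoneal primary tumours (13, 14A, 59 and 61) come from Pak2 f/f mice and are labelled Pak2-/-. A secondary tumour, 14B, has the same labels. The other 3 peritoneal primary tumours (19, 20 and 127) are Pak2 wild-type and labelled Pak2 +/+. The labels give no age or strain, leave unsaid whether each tumour of a group came from its own animal, and do not tie 14A to 14B. The p-values therefore measure the spread between these tumours only. Host cells that the virus did not reach keep their alleles, and a bulk sample holds them too. Fewer cells of a type and less RNA per cell cannot be told apart in such a sample.

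YAP (gene Yap1) and TAZ (gene Wwtr1) carry signals of the Hippo pathway to the nucleus. They bind no DNA themselves and act through TEAD transcription factors, which recognise the bases GGAATG, read as CATTCC on the other strand. The Hippo kinases MST and LATS keep YAP and TAZ in the cytoplasm, and Merlin, the product of Nf2, activates LATS. Loss of Merlin is a frequent event in mesothelioma, a tumour of the cells that line the body cavities, and is known to free YAP and TAZ. Levels of Ctgf, Cyr61 and Ankrd1 are the readouts most used for their activity.

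Total counts ranged from 13469851 to 20402401 per tumour, and levels are given as CPM, depth-scaled counts that were also scaled between tumours. Pak2 transcripts were not depleted where the label says Pak2-null. They stood at 186, 238, 165 and 131 CPM in tumours 13, 14A, 59 and 61. Wild-type tumours 19, 20 and 127 held 128, 90.1 and 92.7 CPM, each below all of those. The label is used as given, though these counts do not show the loss. They cover the whole gene as deposited, and reads of the floxed part alone were not looked at. Transcripts of the genes labelled deleted throughout were also present: Nf2 stood at 74.6 to 118 CPM in primary tumours with the Pak2-null label, 86.9 CPM in 14B and 104 to 142 CPM in the wild-type tumours. Cdkn2a stood at 3.89 to 5.70, 6.43 and 2.37 to 3.15 CPM in the same groups. The tumours also differed in sex transcripts. Xist, made from the silent X chromosome of females, stood at 0.0619 to 1.33 CPM in primary tumours with the Pak2-null label, against 151, 459 and 26.6 CPM in wild-type tumours 19, 20 and 127. The Y-linked Ddx3y stood at 85.4 to 104 CPM in primary tumours with that label, against 1.62, 1.24 and 116 CPM in tumours 19, 20 and 127, so tumour 127 held both transcripts and sex was not fully split by group. The 6 mesothelial markers (Msln, Wt1, Upk3b, Lrrn4, Krt19 and Muc16) summed to 9.91 to 157 CPM in primary tumours with the Pak2-null label, against 31.5 to 133 CPM in the wild-type tumours. Muc16 did not exceed 0.622 CPM in any tumour and had no counts in tumours 59, 61 and 127.

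None of the 10 target genes differed between the 4 primary tumours labelled Pak2-null and the 3 wild-type tumours by the quasi-likelihood test of edgeR (Benjamini-Hochberg adjusted p under 0.05), with the lowest adjusted p at 0.160 (Ccdc80). Over all tested genes that test called 11 (0.0714%), of which 0.0195% were higher and 0.0519% lower. At an unadjusted p under 0.05 there were 2 targets, Ccdc80 and Gadd45a, both lower, beside 12.9% of all tested genes (4.39% higher and 8.55% lower). DESeq2 called these same 2 genes as lower at an adjusted p under 0.05, in a fit that called 7.12% of its genes (1.70% higher and 5.42% lower). So did limma-voom with quality weights, which called 6.16% (1.58% higher and 4.59% lower). Without those weights limma-voom called 0 of the 10, and 0.162% of all genes (0.0324% higher and 0.130% lower). Of the 10 log2 fold changes (labelled Pak2-null minus wild-type), 6 were below 0 and 4 above it, with a median of -0.69 against 0.06 over all tested genes.

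Levels did not overlap between the groups in 4 targets, against 14.0% of all tested genes. Cyr61, Amotl2 and Ccdc80 were lower in every primary tumour labelled Pak2-null than in any wild-type tumour, and Crim1 was higher. Over all tested genes 8.93% were separated in the lower direction and 5.07% in the higher. In the plot of levels by tumour, 7 of the 10 targets had their lowest level of all 7 primary tumours in tumour 14A, which held the lowest level of 24.0% of all tested genes.

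**Figure D1:**
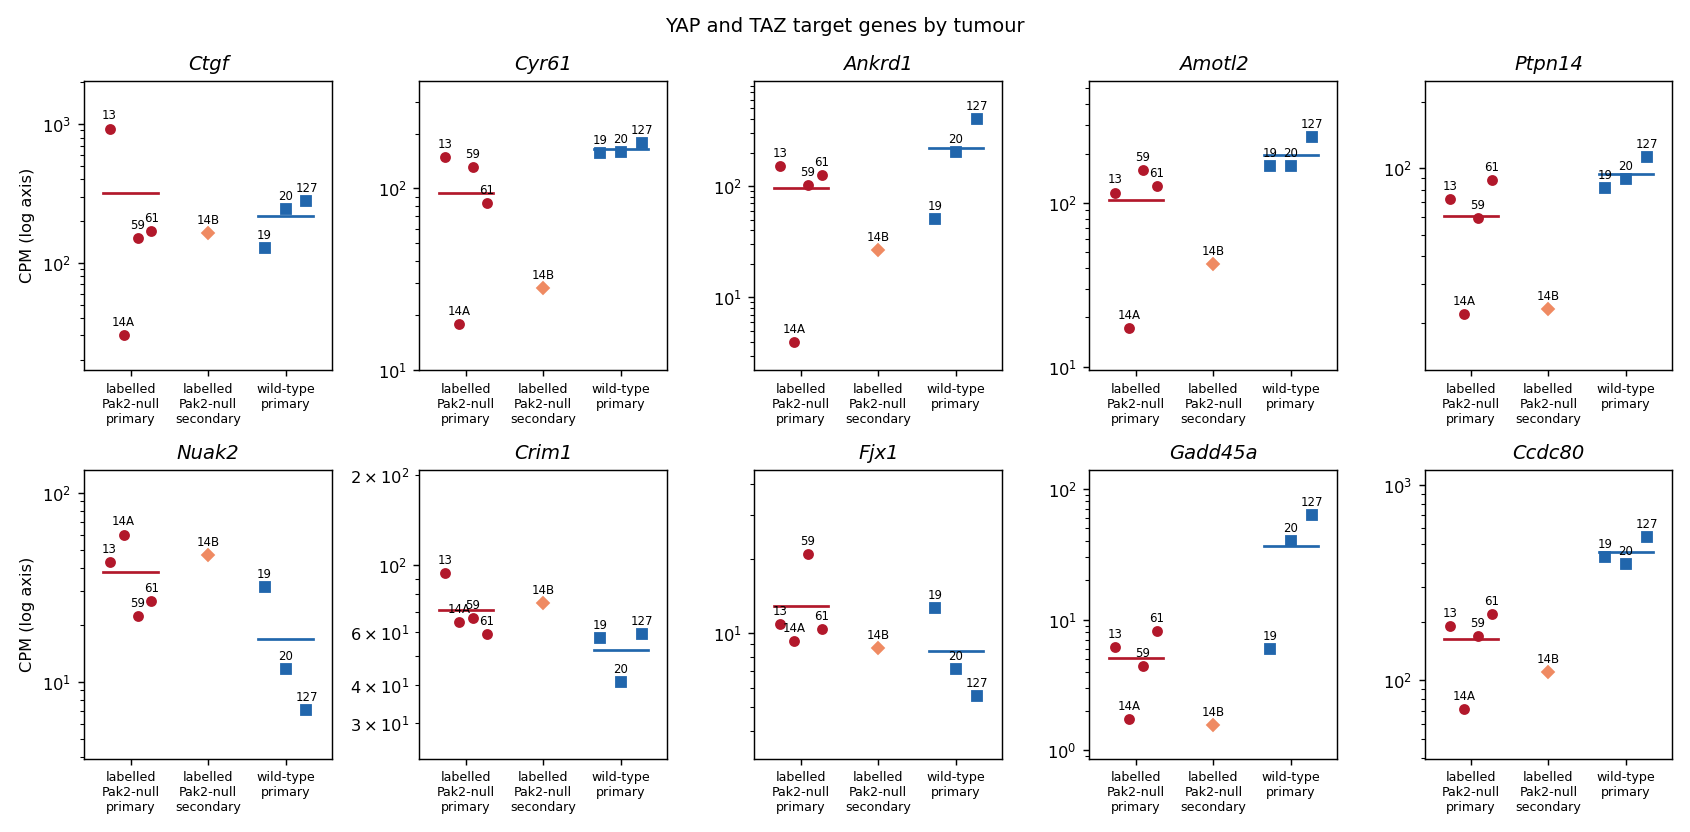
Level of each of the 10 target genes in CPM (log axis) by tumour, with the 4 primary tumours labelled Pak2-null on the left of each panel, the secondary tumour 14B in the middle and the 3 wild-type primary tumours on the right; lines mark group means. Among the 7 primary tumours, 14A sits lowest in 7 panels and highest in the Nuak2 panel; 14B sits below it for Gadd45a, at 1.55 CPM, and tumour 13 stands apart for Ctgf at 929 CPM.

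Among the secreted matrix proteins, Ctgf (ENSMUSG00000019997, chromosome 10, 24595442 to 24598683 as deposited, as for all positions given with the genes), which encodes connective tissue growth factor of the CCN family, stood at 929, 30.4, 151 and 169 CPM in tumours 13, 14A, 59 and 61. It stood at 128, 245 and 280.4 CPM in wild-type tumours 19, 20 and 127. Tumours labelled Pak2-null thus held both the highest and the lowest level, a 30.6-fold range, and the wild-type tumours lay between them within 2.18-fold. The group means were 319.8 ± 411 CPM against 218 ± 79.6 CPM (mean ± SD, n = 4 and n = 3), a log2 fold change of 0.58 (SE 1.01) with an adjusted p of 0.842 by edgeR's quasi-likelihood test. Without tumour 13 it was -0.88, and with all 7 tumours it was -0.36 in limma-voom with quality weights and -0.31 without them, so the sign of the Ctgf difference rests on that tumour and on the tool.

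Cyr61 (ENSMUSG00000028195, chromosome 3, 145646971 to 145649985) encodes another CCN protein, which binds integrins. It stood at 148, 18.0, 130.1 and 83.0 CPM in tumours 13, 14A, 59 and 61, against 157, 159 and 177 CPM in wild-type tumours 19, 20 and 127. The tumours labelled Pak2-null spread widely and the wild-type tumours were even. All 4 lay below the wild-type tumours, yet tumour 13 was close to them and tumour 14A far from them. Means were 94.7 ± 58.0 CPM against 164 ± 10.97 CPM, giving a log2 fold change of -0.77 (SE 0.61). Per kilobase of gene, Ctgf stood at 5.12 times the level of Cyr61 in tumour 13, 1.38 times in 14A, 0.947 times in 59 and 1.66 times in 61. The ratio was 0.666, 1.26 and 1.29 in wild-type tumours 19, 20 and 127. These 2 family members therefore did not keep a fixed proportion, and tumour 13 had more Ctgf per Cyr61 than any other primary tumour.

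Ccdc80 (ENSMUSG00000022665, chromosome 16, 45093402 to 45127924), which encodes a secreted protein of the extracellular matrix, had the smallest p of the 10. It stood at 189.9, 71.7, 169 and 219 CPM in tumours 13, 14A, 59 and 61, against 428, 392 and 543 CPM in wild-type tumours 19, 20 and 127. The highest level in a tumour labelled Pak2-null was well under the lowest wild-type level. Means were 162 ± 63.9 CPM against 454 ± 78.8 CPM, giving a log2 fold change of -1.46 (SE 0.39). It missed the threshold in edgeR's quasi-likelihood test (Benjamini-Hochberg adjusted p = 0.160), and passed with DESeq2 (adjusted p = 0.0195) and with limma-voom with quality weights (adjusted p = 0.0327). Leaving out any 1 primary tumour gave log2 fold changes between -1.63 and -1.22. Ccdc80 is also made by fibroblasts and fat cells. The 6 fibroblast markers summed to 1114 to 12264 CPM in primary tumours with the Pak2-null label, against 7051 to 8604 CPM in the wild-type tumours, where the groups overlapped. The 5 fat cell markers (Adipoq, Plin1, Fabp4, Cidec and Lep) summed to 26.4 to 174 CPM, against 116 to 777 CPM. All 5 had a lower mean and none was at 0 in any tumour. Their part in the Ccdc80 difference was not tested.

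Next come target genes whose products act back on the pathway or its cytoskeletal input. Amotl2 (ENSMUSG00000032531, chromosome 9, 102716672 to 102733418) encodes an angiomotin-family scaffold that holds YAP at cell junctions. It stood at 116, 17.2, 158 and 127 CPM in tumours 13, 14A, 59 and 61, against 168, 167 and 252 CPM in wild-type tumours 19, 20 and 127. The groups did not overlap, though tumour 59 came within 10 CPM of tumour 20. Means were 104 ± 60.9 CPM against 196 ± 48.8 CPM, with a log2 fold change of -0.88 (SE 0.64).

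Ptpn14 (ENSMUSG00000026604, chromosome 1, 189728268 to 189876695) encodes a tyrosine phosphatase that binds YAP and restrains it. It stood at 72.9, 22.0, 59.7 and 88.1 CPM in tumours 13, 14A, 59 and 61, against 81.0, 89.6 and 113 CPM in wild-type tumours 19, 20 and 127. Tumour 61 lay inside the wild-type range and tumour 14A far below it. Means were 60.7 ± 28.3 CPM against 94.5 ± 16.4 CPM, with a log2 fold change of -0.62 (SE 0.43).

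Nuak2 (ENSMUSG00000009772, chromosome 1, 132316126 to 132333488), which encodes a kinase related to AMPK that acts on actin stress fibres, ran the other way. It stood at 43.2, 60.0, 22.3 and 26.6 CPM in tumours 13, 14A, 59 and 61, against 31.6, 11.7 and 7.06 CPM in wild-type tumours 19, 20 and 127. Tumour 14A, lowest for 7 other targets, was the highest for Nuak2, and tumour 127, highest for 6 others, was the lowest. Means were 38.0 ± 17.2 CPM against 16.8 ± 13.0 CPM, with a log2 fold change of 1.20 (SE 0.59), which was 2.02 without tumour 19 and 0.81 without tumour 127. The adjusted p was 0.457 in the edgeR fit after Benjamini-Hochberg adjustment.

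The 2 targets with nuclear products had the widest ranges. Ankrd1 (ENSMUSG00000024803, chromosome 19, 36111965 to 36119844) encodes an ankyrin-repeat protein of heart and skeletal muscle that is found in the nucleus and in the sarcomere. It stood at 152, 4.01, 103 and 127 CPM in tumours 13, 14A, 59 and 61, against 50.3, 205 and 401 CPM in wild-type tumours 19, 20 and 127. The lowest and the highest tumour differed 100.01-fold. Tumour 19 lay below 3 of the 4 tumours labelled Pak2-null. Means were 96.6 ± 64.8 CPM against 219 ± 176 CPM, with a log2 fold change of -1.16 (SE 1.05), which was -0.40 without tumour 127.

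Gadd45a (ENSMUSG00000036390, chromosome 6, 67035096 to 67037457), which encodes a growth arrest protein induced by DNA damage and also a target of p53, had the largest difference of the 10. It stood at 6.13, 1.75, 4.44 and 8.14 CPM in tumours 13, 14A, 59 and 61, against 5.93, 40.0 and 63.5 CPM in wild-type tumours 19, 20 and 127. Only tumours 20 and 127 were high, and tumour 19 lay among the tumours labelled Pak2-null. Means were 5.12 ± 2.71 CPM against 36.5 ± 28.9 CPM, giving a log2 fold change of -2.81 (SE 0.80). It missed the threshold in edgeR's quasi-likelihood test (Benjamini-Hochberg adjusted p = 0.184) and passed with DESeq2 (adjusted p = 0.0119) and with limma-voom with quality weights (adjusted p = 0.0474). The deposited coordinates place an antisense transcript, E230016M11Rik, over Gadd45a. With no stated strand setting their reads cannot be told apart. It reached 0.565 to 0.982 CPM in primary tumours with the Pak2-null label, against 1.02 to 3.91 CPM in the wild-type tumours.

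Skeletal muscle genes and another p53 target were high in the same wild-type tumours as Gadd45a and Ankrd1. The 12 skeletal muscle markers summed to 19.4, 103, 277 and 619 CPM in tumours 13, 14A, 59 and 61, against 2298, 23454 and 24540.1 CPM in wild-type tumours 19, 20 and 127. All 12 had a lower mean in the tumours labelled Pak2-null. Of the defining genes, Myod1 had no counts in tumour 13 and Myog none in tumour 14A. Among 6 p53 targets, Cdkn1a, which encodes the cell cycle inhibitor p21, stood at 101, 122, 133 and 144 CPM in tumours 13, 14A, 59 and 61, against 171, 309 and 719 CPM in tumours 19, 20 and 127. Bax, a gene of cell death, stood at 73.3 to 138 CPM against 58.8 to 61.8 CPM, and 3 of the 6 had a higher and 3 a lower mean. The part of muscle cells and of p53 in the Gadd45a and Ankrd1 values was not tested.

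The remaining targets encode membrane and Golgi proteins and were the steadiest. Crim1 (ENSMUSG00000024074, chromosome 17, 78200248 to 78376592) encodes a transmembrane protein that binds bone morphogenetic proteins. It stood at 94.3, 64.6, 66.7 and 58.91 CPM in tumours 13, 14A, 59 and 61, against 57.1, 41.0 and 58.85 CPM in wild-type tumours 19, 20 and 127. The groups were separate by less than 1 CPM. Means were 71.1 ± 15.8 CPM against 52.3 ± 9.85 CPM, with a log2 fold change of 0.47 (SE 0.25). Tumour 14A did not stand apart for Crim1.

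Fjx1 (ENSMUSG00000075012, chromosome 2, 102449366 to 102452499) is the mouse relative of four-jointed, a Drosophila gene for a Golgi kinase that modifies Fat and Dachsous cadherins. It stood at 10.9, 9.25, 20.8 and 10.4 CPM in tumours 13, 14A, 59 and 61, against 12.6, 7.14 and 5.58 CPM in wild-type tumours 19, 20 and 127. Tumour 59 was high, and the other 3 tumours labelled Pak2-null lay inside the wild-type range. Means were 12.8 ± 5.35 CPM against 8.43 ± 3.66 CPM, with a log2 fold change of 0.63 (SE 0.44). For Cyr61, Amotl2, Ptpn14, Ankrd1, Crim1 and Fjx1 the edgeR quasi-likelihood adjusted p were 0.638, 0.605, 0.595, 0.686, 0.494 and 0.598.

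**Figure D2:**
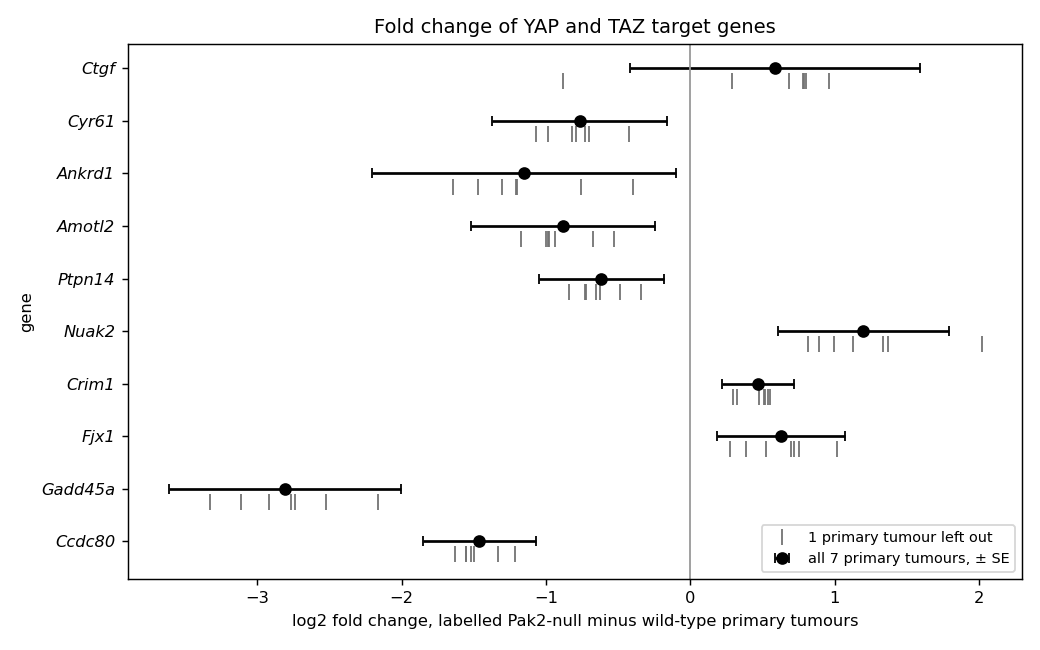
Log2 fold change (labelled Pak2-null minus wild-type primary tumours, horizontal axis) of each target gene; points with bars are the estimate over 7 tumours with its SE, and grey ticks are the values with 1 primary tumour left out. The Ctgf estimate of 0.58 has 1 tick on the other side of 0, at -0.88 without tumour 13, and the other 9 genes keep their sign.

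Between genes, levels can be compared only per length. Per kilobase of deposited gene length, Ctgf had the highest mean in the tumours labelled Pak2-null, at 128 ± 165 CPM per kilobase, against 87.5 ± 32.0 in the wild-type tumours. Ankrd1 averaged 54.7 ± 36.7 CPM per kilobase in the tumours labelled Pak2-null and 124 ± 99.5 in the wild-type tumours. Ccdc80 averaged 44.3 ± 17.4 CPM per kilobase in the tumours labelled Pak2-null and 124 ± 21.5 in the wild-type tumours, so these 2 had the highest wild-type means. Fjx1 was lowest on this scale in both, at 4.10 ± 1.71 against 2.69 ± 1.17 CPM per kilobase. The target with the highest level per kilobase was Ctgf in tumour 13, Ccdc80 in 14A, Cyr61 in 59 and Ankrd1 in 61. It was Ccdc80 in wild-type tumour 19 and Ankrd1 in wild-type tumours 20 and 127.

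Of the 10 targets, 6 were matched to a RefSeq promoter table (GRCm38.p6) and 5 of the 6 hold the TEAD motif near their start. Their upstream sequences are shown because 4 of these 5 (Cyr61, Ankrd1, Amotl2 and Ptpn14) were among the genes lowest in tumour 14A. Ctgf, Nuak2, Fjx1 and Ccdc80 were not matched. The motif searched was GGAATG, on both strands, in windows of 300 bases from 250 before to 50 after the start, and 14.7% of all 32851 windows hold it. Below are the 250 bases before the start of Cyr61 (chr3:145649986-145650235, minus strand), Ankrd1 (chr19:36119845-36120094, minus strand), Amotl2 (chr9:102717554-102717803, plus strand), Ptpn14 (chr1:189728018-189728267, plus strand) and Crim1 (chr17:78199998-78200247, plus strand), 5′ to 3′ on the strand of the gene. Capitals mark the motif, read as CATTCC where it lies on the other strand.
Cyr61: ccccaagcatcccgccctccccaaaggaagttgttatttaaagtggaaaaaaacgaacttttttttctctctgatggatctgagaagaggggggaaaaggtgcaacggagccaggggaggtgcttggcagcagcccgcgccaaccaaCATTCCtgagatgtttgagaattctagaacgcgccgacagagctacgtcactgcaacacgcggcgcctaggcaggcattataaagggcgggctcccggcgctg
Ankrd1: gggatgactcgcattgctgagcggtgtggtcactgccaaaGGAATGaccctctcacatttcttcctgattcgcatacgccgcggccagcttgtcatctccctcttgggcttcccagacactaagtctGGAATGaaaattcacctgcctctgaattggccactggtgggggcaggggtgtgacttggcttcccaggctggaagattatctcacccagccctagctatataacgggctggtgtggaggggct
Amotl2: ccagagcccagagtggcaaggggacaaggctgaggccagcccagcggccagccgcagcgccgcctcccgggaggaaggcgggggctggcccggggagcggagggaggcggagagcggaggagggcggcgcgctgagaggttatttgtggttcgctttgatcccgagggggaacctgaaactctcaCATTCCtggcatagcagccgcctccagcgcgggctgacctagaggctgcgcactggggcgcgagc
Ptpn14: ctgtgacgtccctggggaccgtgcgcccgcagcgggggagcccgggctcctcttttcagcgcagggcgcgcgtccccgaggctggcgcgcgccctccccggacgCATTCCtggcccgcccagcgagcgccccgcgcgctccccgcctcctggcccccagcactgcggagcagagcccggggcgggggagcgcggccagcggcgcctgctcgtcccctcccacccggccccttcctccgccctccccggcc
Crim1: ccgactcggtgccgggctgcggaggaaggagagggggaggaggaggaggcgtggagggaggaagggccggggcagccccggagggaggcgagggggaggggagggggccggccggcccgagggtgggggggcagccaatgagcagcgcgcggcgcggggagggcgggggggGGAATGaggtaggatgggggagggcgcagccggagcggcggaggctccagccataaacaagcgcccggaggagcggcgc
Ankrd1 holds 2 copies in the same orientation, whose first bases lie 210 and 123 bases before the start. The single copies of Cyr61, Amotl2, Ptpn14 and Crim1 begin 103, 65, 146 and 79 bases before it. The RefSeq start of Amotl2 lies 1132 bases inside the gene as deposited. The Gadd45a window did not hold these letters. Crim1, whose level in tumour 14A was near that of the other tumours, holds the motif as the 4 low genes do. A match is a description of the letters, not of binding.

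Most genes for the coactivators and their partners were lowest in tumour 14A as well. Yap1 stood at 124, 17.4, 96.7 and 107 CPM in tumours 13, 14A, 59 and 61, against 98.9, 87.2 and 111 CPM in wild-type tumours 19, 20 and 127. Wwtr1, which encodes TAZ, stood at 215, 20.8, 175 and 151 CPM in tumours 13, 14A, 59 and 61, against 113, 177 and 264 CPM in the wild-type tumours. Apart from tumour 14A, the tumours labelled Pak2-null lay inside or above the wild-type range for Yap1 and inside it for Wwtr1. The log2 fold changes were -0.18 (SE 0.58) for Yap1 and -0.37 (SE 0.69) for Wwtr1, and that of Yap1 was 0.16 without tumour 14A.

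Among the TEAD genes, Tead1, Tead3 and Tead4 were far lower in tumour 14A than in any other primary tumour. Tead2 was also lowest there, but close to tumours 20 and 127. Tead1 stood at 223, 30.4, 191 and 148 CPM in tumours 13, 14A, 59 and 61, against 85.5, 121 and 205 CPM in wild-type tumours 19, 20 and 127. For Tead3 the values were 38.7, 5.50, 26.0 and 35.5 CPM, against 34.8, 33.8 and 60.9 CPM. Tead2 was high in tumours 13 and 19, at 132 and 118 CPM, and between 13.0 and 36.5 CPM in the other 5 primary tumours. Tead4 stood at 6.998, 0.976, 13.5 and 8.61 CPM in tumours 13, 14A, 59 and 61, against 15.4, 36.8 and 76.1 CPM in the wild-type tumours, with no overlap. Log2 fold changes were 0.14 (SE 0.64) for Tead1, 0.03 (SE 0.92) for Tead2, -0.69 (SE 0.60) for Tead3 and -2.48 (SE 0.84) for Tead4. The sign for Tead1 and Tead2 changed in several alternatives, and none passed in edgeR after Benjamini-Hochberg adjustment, with an adjusted p of 0.262 for Tead4 and higher values for the others.

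Vestigial-like proteins also bind TEAD factors. Vgll2, a gene of skeletal muscle, had no counts in tumours 13 and 14A and 0.555 and 0.462 CPM in tumours 59 and 61, against 3.80, 44.6 and 39.0 CPM in wild-type tumours 19, 20 and 127. Vgll3 ranged from 4.83 CPM in tumour 14A to 45.2 CPM in tumour 13, against 40.5 to 93.2 CPM in the wild-type tumours. Vgll4, which competes with YAP for TEAD, was even, at 46.1 to 63.0 CPM against 66.7 to 89.8 CPM, without overlap, and did not dip in tumour 14A. On the log2 scale they differed by -6.80 (SE 1.43), -1.04 (SE 0.68) and -0.53 (SE 0.21), and the adjusted p were 0.118, 0.573 and 0.337 in the edgeR fit after Benjamini-Hochberg adjustment. Vgll1 had no counts in any tumour. Of the 9 tested coactivator and partner genes, 7 were lowest in tumour 14A, 2 had a higher and 7 a lower group mean, and the median log2 fold change was -0.53.

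**Figure D3:**
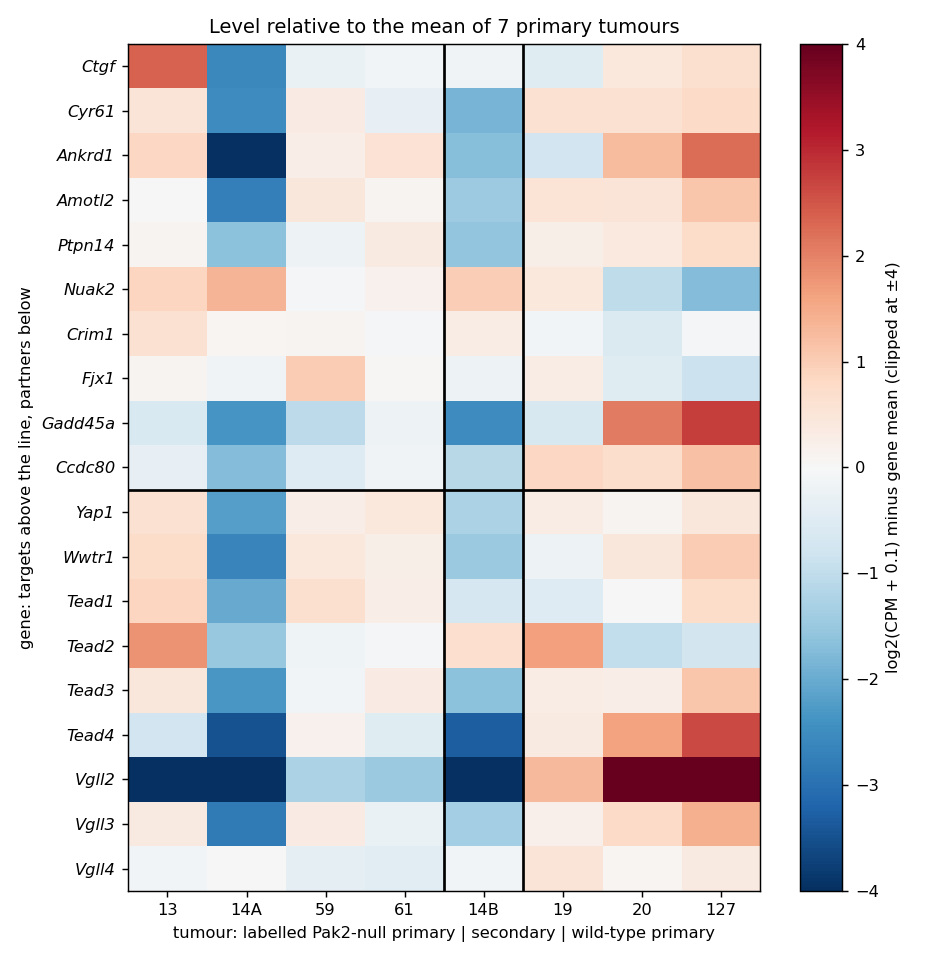
Level of 10 target genes (above the line) and 9 coactivator and partner genes (below it) in 8 tumours, as log2 of CPM plus 0.1 minus the mean of the gene over the 7 primary tumours; red is higher and blue lower, clipped at 4. Column 14A is deep blue for Ankrd1 at 4.01 CPM and blue for Yap1 at 17.4 CPM, near white for Crim1 and Fjx1, and red for Nuak2.

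Sums of cell type markers in tumour 14A also differed from those in the other primary tumours. The 6 fibroblast markers (Pdgfra, Pdgfrb, Col1a1, Dcn, Lum and Thy1) summed to 1114 CPM in tumour 14A and to between 8973 and 12264 CPM in tumours 13, 59 and 61, against 7051 to 8604 CPM in the wild-type tumours. The 6 macrophage markers (Cd68, Csf1r, Adgre1, C1qa, Cd14 and Mrc1) summed to 3703 CPM in tumour 14A and to 1493 to 2238 CPM in the other 3, against 716 to 1853 CPM in the wild-type tumours. These markers did not move as one. C1qa alone gave 2259 CPM of the sum in 14A, and Cd68, Adgre1 and Cd14 were also higher there than in tumours 13, 59 and 61. Csf1r, at 368 CPM in 14A and 441 to 661 CPM in those 3, and Mrc1, at 48.8 CPM in 14A and 316 to 569 CPM in those 3, were lower. The 6 T and NK cell markers (Cd3e, Cd2, Cd8a, Nkg7, Ncr1 and Prf1) summed to 160.0 CPM in tumour 14A and to 4.95 to 90.1 CPM in the other 3, against 13.8 to 30.5 CPM. Of the 7 primary tumours, 14A had the highest Cd3e, Cd2, Cd8a and Prf1. Nkg7 was highest in tumour 59, at 23.9 CPM beside 22.5 CPM in 14A. Ncr1 was highest in tumour 61, at 3.18 CPM beside 1.28 CPM in 14A. No marker of these 3 lists was at 0 in any tumour. In tumour 14A 5 of 6 fibroblast genes had their lowest level of the 7 primary tumours, and 1 of 6 macrophage genes and 0 of 6 T and NK cell genes did. The part of these markers' cell types in the target levels was not tested.

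**Figure D4:**
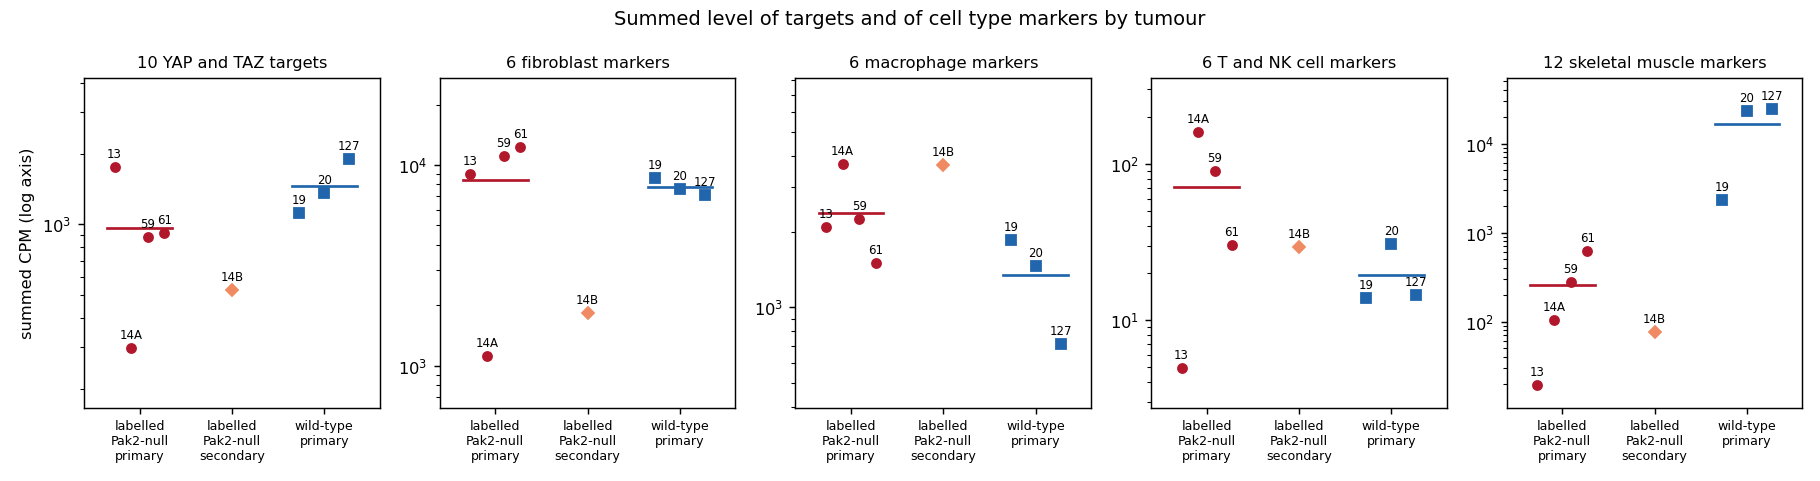
Summed CPM (log axis) of the 10 targets and of 4 marker lists by tumour, with the same groups and symbols as in the plot of levels by tumour. Tumour 14A is lowest for the targets (299 CPM) and for fibroblast markers (1114 CPM) and highest for macrophage (3703 CPM) and T and NK cell markers (160.0 CPM) among the primary tumours.

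Handling-response genes also differed in that tumour. Atf3, a stress-induced transcription factor gene, stood at 262 CPM in tumour 14A and 5.20, 7.96 and 24.7 CPM in tumours 13, 59 and 61, against 16.7 to 23.5 CPM in the wild-type tumours. Jun, part of the AP-1 factor that binds beside TEAD at many YAP targets, was lowest there, at 64.4 CPM, and at 152 to 219.8 CPM in the other 3, against 109.7 to 138 CPM in the wild-type tumours. Over 9 such genes the sum was 1045 CPM in tumour 14A and 487 to 568 CPM in the other 3, against 470.5 to 527 CPM in the wild-type tumours. These genes did not move as one. Atf3, Fos, Junb, Ier2 and Hspa1a were highest in 14A of the 7 primary tumours. Jun and Fosb, at 2.00 CPM, were the 2 of the 9 that were lowest there. Hspa1b, at 33.3 CPM in 14A, was lower there than in tumours 13, 59 and 61. In the secondary tumour 14B, Atf3 stood at 228 CPM and the sum was 953 CPM. The part of handling-response genes in the target levels was not tested.

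With tumour 14A left out, the median log2 fold change of the 10 targets was -0.38 in place of -0.69, and still 0 of 10 passed in edgeR after Benjamini-Hochberg adjustment. Ccdc80 stood at -1.22 (adjusted p = 0.0985) and Gadd45a at -2.53 (adjusted p = 0.177) in that fit. The log2 fold changes of Cyr61, Amotl2 and Ankrd1 were -0.43, -0.53 and -0.76. Against the mean of tumours 13, 59 and 61, tumour 14A was 31.8-fold lower for Ankrd1, 13.7-fold for Ctgf, 7.76-fold for Amotl2 and 6.69-fold for Cyr61, and 3.57-fold, 3.34-fold and 2.69-fold lower for Gadd45a, Ptpn14 and Ccdc80. For Crim1 and Fjx1 the ratio was 1.14 and 1.52, and for Nuak2 0.511. Tumours 13, 14A, 59 and 61 lay below the wild-type range for 4, 7, 5 and 3 targets, beside 33.8%, 34.8%, 27.6% and 25.5% of all tested genes. They lay above it for 3, 2, 2 and 1 targets, beside 26.3%, 31.9%, 23.4% and 24.8% of all tested genes.

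The secondary tumour 14B is a single sample and was not tested. It stood at 163 CPM for Ctgf, 28.3 for Cyr61, 26.4 for Ankrd1, 42.2 for Amotl2, 23.0 for Ptpn14 and 111 for Ccdc80. For Nuak2, Crim1, Fjx1 and Gadd45a it stood at 46.5, 74.7, 8.71 and 1.55 CPM. For 6 targets it was below the wild-type range and for 2, Nuak2 and Crim1, above it, beside 33.4% and 30.0% of all tested genes. It lay within the range of the 4 primary tumours labelled Pak2-null for 8 of 10. Cyr61, Ankrd1, Amotl2, Ptpn14 and Ccdc80 were next to lowest in it of all 8 tumours, after 14A. Ctgf was not low: it was 5.35-fold higher than in 14A, and its ratio to Cyr61 per kilobase was 4.68, near the 5.12 of tumour 13. Yap1 and Wwtr1 stood at 33.1 and 46.8 CPM in 14B, and its fibroblast markers summed to 1829 CPM.

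Other known YAP and TAZ targets also lay on both sides of 0. Of 12 further genes of a published target signature (Myof, Lats2, Asap1, Axl, F3, Igfbp3, Foxf2, Nt5e, Dock5, Arhgef17, Tgfb2 and Rbms3), 6 had a higher and 6 a lower mean, none passed edgeR's quasi-likelihood test, and the median log2 fold change was -0.04. Axl, which encodes a receptor tyrosine kinase, stood at 1462, 363, 1082 and 831 CPM in tumours 13, 14A, 59 and 61, against 251, 372 and 316 CPM in wild-type tumours 19, 20 and 127. Tgfb2, a growth factor gene, stood at 15.1, 4.21, 6.54 and 15.6 CPM, against 19.9, 47.5 and 108 CPM, with no overlap. On the log2 scale they differed by 1.60 (SE 0.50) and -2.47 (SE 0.67), and the adjusted p were 0.213 and 0.164 in the edgeR fit after Benjamini-Hochberg adjustment. Myof, a membrane repair gene, was at 1.09 (SE 0.47). Foxf2, a forkhead factor gene, was at -3.58 (SE 1.53) and at 0.47 without tumour 19, the only tumour where it exceeded 3 CPM.

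Of the 12 signature genes, 6 were lowest in tumour 14A. Thbs1, a target outside that signature, which encodes the matrix protein thrombospondin, stood at 769, 72.4, 491 and 339 CPM in tumours 13, 14A, 59 and 61, against 816, 711 and 674 CPM in wild-type tumours 19, 20 and 127. It was lowest in tumour 14A, and its log2 fold change was -0.79 (SE 0.67).

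Upstream lie the genes of the Hippo kinase cascade. The 10 genes (Nf2, Stk3, Stk4, Sav1, Lats1, Mob1a, Mob1b, Wwc1, Wwc2 and Frmd6) had a higher mean in 7 and a lower mean in 3, their median log2 fold change was 0.57, and none passed edgeR's quasi-likelihood test. Stk3, which encodes the kinase MST2, and Mob1a, an activator subunit of LATS, differed by 0.91 (SE 0.38) and 0.72 (SE 0.33) on the log2 scale. Levels in tumour 14A went both ways. Of the 7 primary tumours it had the highest Mob1a and Stk4, at 482 and 186 CPM. It had the lowest Nf2, Wwc2 and Frmd6, at 74.6, 15.9 and 24.2 CPM.

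The closest relatives of the targets, which are not in the target set, had lower means in all 11 cases. Their median log2 fold change was -1.46. Levels did not overlap between the groups in 7 of 11, against 14.0% of all tested genes (8.93% in the lower direction). None of the 11 relatives passed edgeR's quasi-likelihood test. Gadd45g and Nuak1 can be set beside their target relatives. Gadd45g stood at 17.8 to 32.9 CPM against 42.0 to 64.6 CPM, with a log2 fold change of -1.22 (SE 0.28). Nuak1 stood at 10.4 to 38.8 CPM against 64.7 to 169 CPM, with a log2 fold change of -1.90 (SE 0.51), while Nuak2 was at 1.20. The muscle genes Ankrd2 and Ankrd23, relatives of Ankrd1, were at -6.21 (SE 1.30) and -4.72 (SE 0.96). They followed the skeletal muscle markers in being highest in tumours 20 and 127, where Ankrd2 stood at 62.2 and 113 CPM. Ankrd1 differed from them in tumour 13, with 152 CPM of Ankrd1 beside 0.186 CPM of Ankrd2 and 19.4 CPM of all 12 muscle markers together.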

How the data were processed

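Per the labels' protocols, frozen tumours were pulverised, RNA was purified on columns and libraries were made from enriched mRNA. The authors deposited unnormalised read counts per gene, 1 column per tumour, with gene lengths in bases as other values. STAR, HTSeq, GRCm38 and mm10 are named per the submitters' processing notes. Versions, annotation, strand setting and filters: not given in the sources used here. All 8 count columns were used and 0 columns of other samples were present.

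Genes were filtered with filterByExpr (minimum count 10, minimum total 15) and fitted in edgeR 4.0.16 (R 4.3.3) with TMM scaling, quasi-likelihood tests and Benjamini-Hochberg adjustment at 0.05, over the 7 primary tumours with no covariate. DESeq2 1.42.0 and limma 3.58.1 were alternatives, and all 3 were tested on simulated data. The simulation gave every gene the same relative spread between tumours, so it does not show how the tools behave at the spread seen here. Each SE was taken as the absolute log2 fold change over the root of F. CPM use library sizes over tested genes and TMM factors over 8 tumours. A gene with no counts could be present at up to 3 counts, 0.139 to 0.193 CPM in primary tumours and 0.311 CPM in 14B, counting error only. No 2 libraries agreed within sampling noise (mean chi-square per gene at least 71.5). Gene names were matched to RefSeq synonyms for 1 marker (Adgre1, deposited as Emr1).

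The members and all lists were chosen with earlier results of these data known. Text names all 10 members and all coactivator and partner genes. From each other list it gives values of genes among the 4 of lowest p. Outside this rule are Nf2, Stk4, Wwc2 and Frmd6, given for their place in tumour 14A. Marker lists are given as sums, with values of some single markers. A list of further targets is not reported here as a whole. Alternatives were other scalings, filters and tools, inclusion of 14B and each primary tumour left out.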

Additional observations from a re-analysis of the deposited data

Results flagged for a closer look

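Gaps between 1 tumour and the rest of its group were looked for in the 4 primary tumours labelled Pak2-null, over the 43 genes named for the comparison (10 targets and 33 others). A tumour was picked out where its gap to the nearest tumour relative to the range of the group, exceeded Dixon's 95% critical value for 4 samples. For normally distributed values chance picks out about 1 in 20 groups, and 3 of the 43 genes met it. The gaps were taken on CPM without logs, where a high value stands apart more easily than a low one. All 3 picks were the highest tumour of the group, and log levels were not tried. Ctgf stood at 929 CPM in tumour 13 and at 30.4 to 169 CPM in the other 3. Fjx1 stood at 20.8 CPM in tumour 59 and at 9.25 to 10.9 CPM in the other 3. Atf3, a stress-induced transcription factor gene, stood at 262 CPM in tumour 14A and at 5.20 to 24.7 CPM in the other 3. On the CPM scale each of these 3 genes had a different tumour standing apart.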

How the results depend on the processing

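Of 170 values (10 targets under 17 alternatives), 163 kept direction and side of the threshold, 3 changed sign and 4 passed the threshold (Ccdc80 and Gadd45a under DESeq2 and under limma-voom with quality weights). The number of targets called was 2 with DESeq2, 2 with limma-voom with quality weights, and 0 to 0 leaving out each primary tumour, where the median log2 fold change ran from -0.91 to -0.38. Ctgf was -0.36 with limma-voom with quality weights and -0.31 without them (chosen after seeing the data), and -0.88 to 0.96 with 1 tumour left out. Among the 33 other genes, with quality weights, Foxf2 was 0.73, Yap1 0.017, Phlda3 -0.028 and Atf3 -0.85. Tead1 was -0.10 with limma-voom without weights and -0.0055 with 14B counted among tumours labelled Pak2-null. Tead2 was -0.046 with upper-quartile factors, -0.10 with library size only and -0.00034 with limma-voom without weights. With 1 tumour left out, Foxf2 ran from -4.16 to 0.47, Yap1 from -0.41 to 0.16, Tead1 from -0.13 to 0.53, Tead2 from -0.94 to 1.37, Mdm2 from -0.35 to 0.13 and Atf3 from -0.71 to 2.26. The cause was not tested. The quality weights were 0.262 for tumour 14A and 3.20 for tumour 59. All-gene calls numbered 11 in edgeR, 20 with a CPM filter, 1195 with DESeq2, 950 and 25 with limma-voom with and without weights, 4 with 14B as its own group, 191 with 14B counted among tumours labelled Pak2-null, and 0 to 59 with 1 tumour left out. No scaling moved the median of all genes by over 0.1. No paired analysis was possible because the groups share no replicate numbers. Depth limits Vgll2 and Muc16, which had few or no counts in several tumours.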

Other observations

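The genes whose pattern over the 7 primary tumours was most like that of each target were taken as the 2 with the smallest root mean square difference in standardised log2 CPM, among 12982 genes whose log2 CPM averaged 1 or more. For Cyr61 the nearest was Prickle2 (0.0933), a gene of planar cell polarity, followed by Eri3 (0.144). For Gadd45a they were Prkab2 (0.0709), a subunit gene of the kinase AMPK, and Ogn (0.122), a matrix proteoglycan gene. For Ccdc80 they were Cacna1g (0.0743), a calcium channel gene, and Olfml3 (0.127). For Ankrd1 they were Fam26e (0.102) and Ppfibp1 (0.104), and for Ptpn14 Wdr35 (0.0960) and Sertad4 (0.133). For Amotl2 they were St5 (0.124) and Cpped1 (0.152), and for Ctgf Abcg2 and Snai2 (0.172 each), a transporter and a transcription factor gene. Nuak2 was nearest to Pitpna (0.115) and Pip5k1c (0.177). Crim1 was nearest to Piezo1 (0.245), which encodes a mechanically gated channel, and Zbtb34 (0.246), and Fjx1 to Slc36a1 (0.220) and Gzme (0.277). No target was among the nearest genes of another. Among pairs of targets the closest were Cyr61 and Amotl2 (0.262) and the farthest Nuak2 and Gadd45a (1.97).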
